A study of Mus musculus with 4 samples.

Results

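Proteasome genes were examined in bulk RNA-seq of CD24+ emergency progenitors (EPs) sorted from mouse spleen. The proteasome genes were taken as all gene symbols made of Psm, a letter from a to f and a number, without *Psmb8*, *Psmb9* and symbols marked as pseudogenes. This rule found 45 of the 40213 symbols in the count files. Among them, 43 encode subunits, activators, an inhibitor or assembly chaperones of the proteasome, with 17 genes of the 20S core, 20 of the 19S cap and 6 activators or inhibitors. The other genes, *Psmc3ip* and *Psme3ip1*, match the rule by symbol only, and their values are given by themselves. After a filter on low counts, 42 of the 43 were among the 12393 genes tested. *Psmb11*, the thymus-specific subunit, had 0 counts in all 4 libraries and was not tested.

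EPs are CD11c+CD117+ cells that Flt3L expands and that give rise to conventional dendritic cells. All mice were injected i.p. with Flt3L-Ig (10 μg, on day 0 and again on day 3), and spleens were taken for sorting on day 9. The 2 WT libraries came from mice that the study describes as TopBP1 fl/fl littermate controls, and the 2 TopBP1 cKO libraries from TopBP1 fl/fl mice with CD11c-cre, in which the floxed gene is deleted only in cells that have switched on the CD11c promoter. TopBP1 is a scaffold protein of DNA replication and checkpoint signaling. The number and age of the mice behind each library are not given in the labels, so P values measure only the spread between these libraries, which may be technical.

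The proteasome breaks down proteins that carry ubiquitin chains. Its 20S core is a barrel of outer α rings, which gate the entry, and inner β rings, which hold the proteolytic sites. The 19S cap binds the ubiquitin chain, removes it and unfolds the substrate with a ring of ATPases. Interferon-inducible immunosubunits and the PA28 activator alter the peptides that the core releases for MHC class I. The transcription factors encoded by *Nfe2l1* and *Nfe2l2* can bind antioxidant response elements (AREs) near subunit genes.

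The promoters of 4 members are shown, because *Psmc1* and *Psmd6* had the smallest P values among the proteasome genes, and because *Psmb5* and *Psmb6*, which encode proteolytic subunits, hold the core letters of an ARE. The sequences are from RefSeq (GRCm38.p6), 250 bases before to 50 bases after the gene start, 5′ to 3′ on the strand of the gene. Capitals mark the letters TGACNNNGC (ARE core) or the box CCAAT, searched on both strands. The opening letters of the ARE core are shared with AP-1 sites, and the marked CCAAT box and ARE cores do not overlap each other.
Psmc1, chr12:100109952-100110251, + strand: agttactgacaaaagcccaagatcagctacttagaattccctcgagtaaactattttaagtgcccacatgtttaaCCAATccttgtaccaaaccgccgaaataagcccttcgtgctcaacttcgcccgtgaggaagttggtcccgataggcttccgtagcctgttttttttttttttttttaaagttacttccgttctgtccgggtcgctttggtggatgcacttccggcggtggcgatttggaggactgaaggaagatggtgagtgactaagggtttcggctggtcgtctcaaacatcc
Psmd6, chr14:14120896-14121195, - strand: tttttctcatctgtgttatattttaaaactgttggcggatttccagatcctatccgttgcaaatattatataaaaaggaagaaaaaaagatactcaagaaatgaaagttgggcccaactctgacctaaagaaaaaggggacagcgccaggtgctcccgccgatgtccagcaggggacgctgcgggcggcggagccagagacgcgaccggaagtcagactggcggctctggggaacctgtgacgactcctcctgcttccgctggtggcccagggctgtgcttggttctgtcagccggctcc
Psmb5, chr14:54617946-54618245, - strand: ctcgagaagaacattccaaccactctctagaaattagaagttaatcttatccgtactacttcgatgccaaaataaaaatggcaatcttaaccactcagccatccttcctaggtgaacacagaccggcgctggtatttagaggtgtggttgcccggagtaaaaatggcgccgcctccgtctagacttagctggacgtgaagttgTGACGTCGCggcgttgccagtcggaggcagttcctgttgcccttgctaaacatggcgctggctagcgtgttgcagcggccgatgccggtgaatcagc
Psmb6, chr11:70525107-70525406, + strand: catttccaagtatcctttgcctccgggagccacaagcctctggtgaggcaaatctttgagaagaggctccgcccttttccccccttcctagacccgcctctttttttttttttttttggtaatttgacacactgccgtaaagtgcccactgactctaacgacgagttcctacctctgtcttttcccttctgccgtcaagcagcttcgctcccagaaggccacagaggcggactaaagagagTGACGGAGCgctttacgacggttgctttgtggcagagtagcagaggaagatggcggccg
The CCAAT box of *Psmc1* lay 173 bases before the start, whereas neither motif was found in the window of *Psmd6*. The ARE core of *Psmb5* lay 43 bases and that of *Psmb6* 5 bases before the start. The table held 39 promoters of 36 of the 43 genes. The ARE core was found in 6 of the 39 promoters (15.4%), those of *Psmb5*, *Psmb6*, *Psmc6*, *Psmd12*, *Psmd9* and *Psme4*, compared with 12.4% of all promoters. CCAAT was found in 13 of the 39 promoters (33.3%), compared with 37.4% of all promoters, with 7 of 14 for the 20S core and 5 of 18 for the 19S cap. These matches describe the letters of the window and do not show binding.

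Before the members are compared, the libraries themselves are described. The counts of *Topbp1*, the floxed gene, were 1102 and 1143 in WT, 773 in cKO replicate 1 and 1279 in cKO replicate 2. The last library was thus not lower than WT, and the second group is therefore called the cKO-labelled libraries. Library totals ran from 14561583 to 15193831 counts, of which the proteasome genes held 0.412% and 0.428% in WT and 0.448% and 0.458% in the cKO-labelled libraries. The genes of the EP gate were well expressed in every library, with *Itgax* at 614 CPM (counts scaled to a common library size with TMM factors) or more, *Kit* at 383 or more, *Cd24a* at 756 or more and *Flt3* at 614 or more, and 3 of these 4 genes, all but *Itgax*, were lower in both cKO-labelled libraries. Over all genes tested, 22.8% were higher and 20.8% lower in both cKO-labelled libraries than in both WT libraries. Neutrophil markers (10 of 10) and cell cycle genes (15 of 15) were higher in both of these libraries than in both WT libraries. Of them, 5 and 0 genes, respectively, had a Benjamini–Hochberg false discovery rate (FDR) below 0.05 in the quasi-likelihood test of edgeR, compared with 0.105% of all genes. The summed neutrophil markers were 743 to 790 CPM in WT and 2189 to 2214 CPM in the cKO-labelled libraries. The summed cell cycle genes were 632 and 628 CPM in WT, 845 CPM in cKO replicate 1 and 2225 CPM in replicate 2. Of the interferon response genes, 5 of 12 were lower and 0 higher in both of these libraries, with sums of 1898 and 1902 CPM in WT against 1553 and 1509 CPM. Markers of other splenic cells were low, with sums of 28.2 to 38.8 CPM for B cells (4 of 6 genes higher in both), 10.5 to 18.97 CPM for T cells (3 of 4 tested, *Trac* at 0), 14.1 to 16.6 CPM for macrophages (1 of 5 tested, with 3 lower in both) and 8.40 to 12.4 CPM for erythroid cells (2 of 2 tested). Plasmacytoid DC markers summed to 164 to 206 CPM, with 1 of 5 higher and 2 lower in both. The part of these differences in the values of the proteasome genes was not tested, and in bulk RNA fewer cells of a type cannot be told apart from less RNA per cell.

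Proteasome genes were, for the most part, slightly higher in the cKO-labelled libraries, and no single gene passed the test. The log2 fold change (cKO-labelled libraries against WT) was above 0 for 35 of the 42 genes tested (83.3%), compared with 51.2% of all genes tested. Its median was 0.11 (a fold of 1.08), compared with 0.01 over all genes. The values ran from -0.20 for *Psme2b*, a gene closely related in sequence to the activator gene *Psme2*, to 0.34 for *Psmc1*, an ATPase of the cap, and their SEs from 0.11 to 0.37. By the edgeR test over all genes, 0 proteasome genes had an FDR below 0.05, where 0.105% of all genes tested did, and the smallest FDR was 0.380. With an unadjusted P value under 0.05, 2 members were higher (4.76% of the members, 6.95% of all genes tested) and 0 lower (3.77% of all genes). The count at FDR < 0.05 was also 0 with the likelihood ratio test of edgeR, the DESeq2 Wald test and limma-voom.

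As for single libraries, 23 of the 42 genes (54.8%) were higher in both cKO-labelled libraries than in both WT libraries, compared with 22.8% of all genes tested. By contrast, 2 genes (4.76%), *Psme1* and *Psme2b*, were lower in both, compared with 20.8% of all genes, and the groups overlapped for the remaining 17. Both cKO-labelled libraries took part in this. The median member lay 0.11 above the WT mean on the log2 scale in cKO replicate 1 and 0.09 above it in replicate 2. In replicate 1, 32 members (76.2%) were above both WT libraries, compared with 37% of all genes tested, and in replicate 2, 27 members (64.3%), compared with 41.3% of all genes. The highest value of the 4 libraries fell in each cKO-labelled library for 18 members and in each WT library for 3. With single libraries left out, 30 members were above 0 without cKO replicate 1 and 36 without replicate 2, with medians of 0.09 and 0.10. The 2 WT libraries differed by a median of 0.07 on the log2 scale over the members, and the cKO-labelled libraries by 0.14. These spreads were 0.10 and 0.19 for the 6825 genes of the same range of expression.

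**Figure D1:**
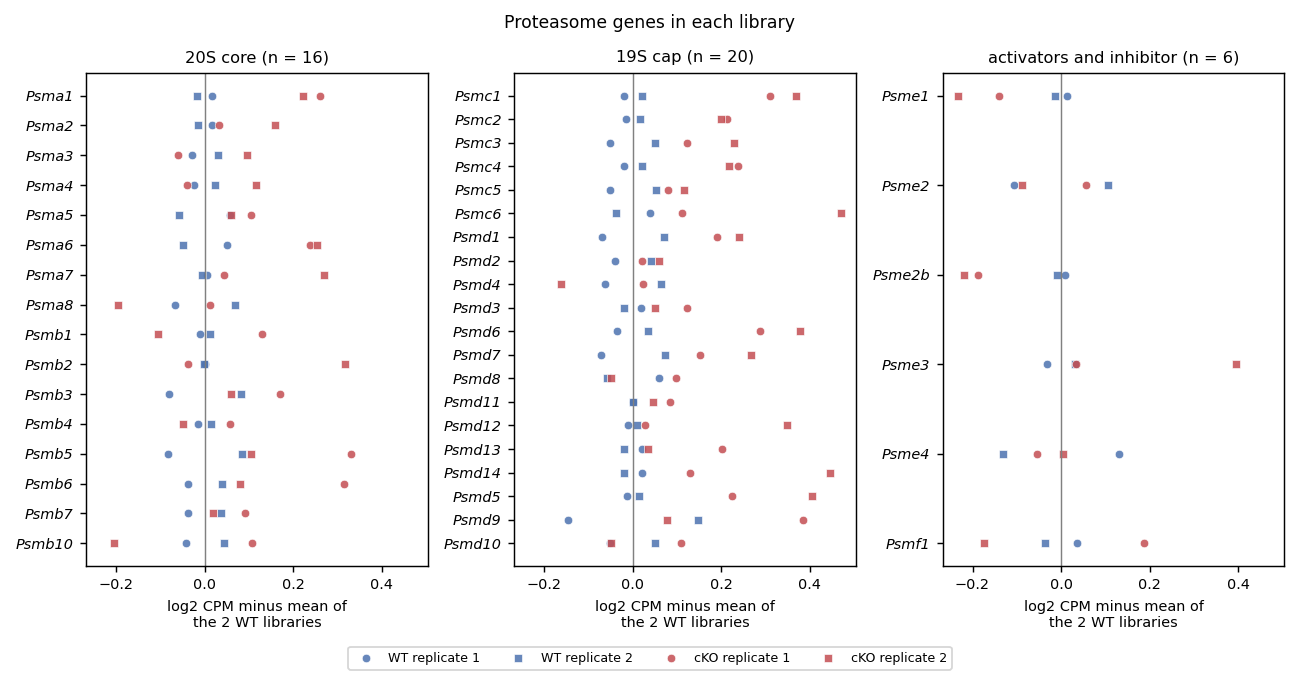
Expression of each of the 42 proteasome genes tested in each library, as log2 CPM minus the mean of the 2 WT libraries (x axis), with a panel for each part of the complex; blue marks are WT and red marks are cKO-labelled libraries (circles, replicate 1; squares, replicate 2). Both red marks lie right of both blue marks for 15 of 20 genes of the 19S cap. They do so for 7 of 16 of the 20S core and 1 of 6 activators and inhibitors. Of all genes tested, 22.8% were higher in both cKO-labelled libraries.

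Genes of the 19S cap stood furthest from WT. Of 20 genes, 19 (95%) had a log2 fold change above 0, compared with 51.2% of all genes tested. In both cKO-labelled libraries, 15 (75%) were higher and 0 lower, compared with 22.8% and 20.8% of all genes. The median log2 fold change was 0.20, a fold of 1.15. It was 0.14 without WT replicate 1 and 0.12 without cKO replicate 2, the library with the highest cell cycle sum. The median member of the cap lay 0.13 above the WT mean in cKO replicate 1 and 0.21 in replicate 2. Leaving out the 3 assembly chaperones, which leave the finished particle, 14 of 17 (82.4%) were higher in both, with a median of 0.20.

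The 6 ATPases, *Psmc1* to *Psmc6*, form the unfolding ring at the base of the cap. All 6 were higher in both cKO-labelled libraries, compared with 22.8% of all genes tested. Their median log2 fold change was 0.22. *Psmc1* had 823 and 905 counts in WT and 1115 and 1177 counts in the cKO-labelled libraries. The groups did not overlap, and the gap between them was wider than the gap within either group. Its log2 fold change was 0.34 (SE 0.12, unadjusted P = 0.0229), with an FDR of 0.380 in the quasi-likelihood test of edgeR, and ranged from 0.30 to 0.37 when any 1 library was dropped. For *Psmc1*, 32.2% of the 31-base sequences of its transcripts also occur in another gene. Most of them occur in *Gm9575*, a symbol for which the deposited counts hold no row. *Psmc6* had 1003 and 1015 counts in WT and 1135 and 1477 in the cKO-labelled libraries. Its log2 fold change of 0.30 was 0.10 without cKO replicate 2, which held the highest value. *Psmc5* was the ATPase nearest to WT, at 0.10.

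The lid of the cap carries *Psmd14*, the deubiquitinase that cuts the ubiquitin chain from the substrate, and 7 scaffold subunits. Of these 8 genes, 7 (87.5%) were higher in both cKO-labelled libraries, all but *Psmd8*, compared with 22.8% of all genes tested. Their median log2 fold change was 0.16. *Psmd6* had 702 and 787 counts in WT and 945 and 1021 counts in the cKO-labelled libraries. Here too the groups did not overlap, and both of the latter libraries stood well apart from WT. The log2 fold change was 0.33 (SE 0.12, unadjusted P = 0.0289), with an FDR of 0.403 in the quasi-likelihood test of edgeR, and ran from 0.28 to 0.38 with each library left out. None of the 31-base sequences of *Psmd6* occurs in another gene. *Psmd14* had 956 and 992 counts in WT and 1110 and 1401 in the cKO-labelled libraries, a log2 fold change of 0.30 that was 0.12 without cKO replicate 2.

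Of the base scaffolds, *Psmd1* was higher in both cKO-labelled libraries (log2 fold change 0.21), and *Psmd2* overlapped (0.04). *Psmd4* encodes a receptor for ubiquitin chains, and it was the only gene of the cap below 0 with all 4 libraries in the test. It had 1498 and 1745 counts in WT and 1712 and 1528 in the cKO-labelled libraries. After scaling these were 106 and 115 CPM against 112 and 98.8 CPM, so that the groups overlapped, with cKO replicate 2 lowest. The log2 fold change of *Psmd4* was -0.07 (SE 0.13, FDR 0.888 in the edgeR test). Its value was 0.02 without cKO replicate 2 and -0.27 with its most abundant transcript. *Psmd5*, *Psmd9* and *Psmd10* are assembly chaperones that hold ATPases before the base is joined. *Psmd5* had 397 and 432 counts in WT and 504 and 580 counts in the cKO-labelled libraries, with no overlap and the higher value again in replicate 2. Its log2 fold change was 0.32 (SE 0.14), with an FDR of 0.490 in the edgeR test. *Psmd9* (0.23) and *Psmd10* (0.03) overlapped between the groups. In the cap, too, the sign was less firm near 0. *Psmd2*, *Psmd8* and *Psmd10* were each below 0 when 1 or another library was left out, down to -0.05.

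**Figure D2:**
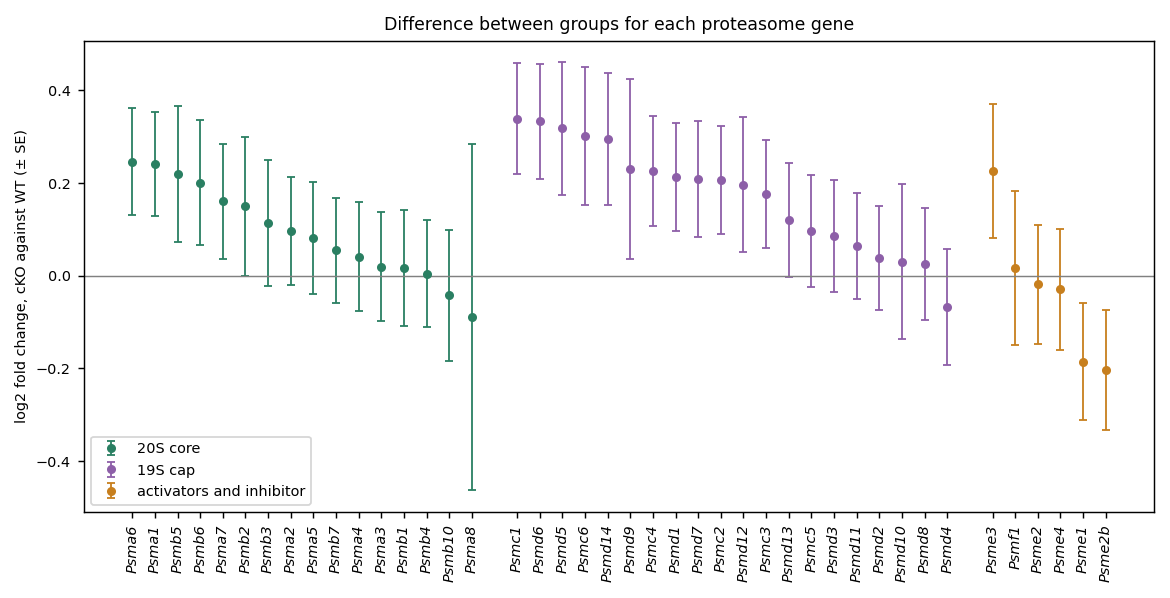
Log2 fold change of each proteasome gene, cKO-labelled libraries against WT (y axis, points; bars are ± SE from the edgeR fit), sorted within the 20S core (green), the 19S cap (purple) and the activators and inhibitor (orange). In the cap, 19 of 20 points lie above 0, up to 0.34 for *Psmc1*, compared with 51.2% of all genes tested. Of the 6 activators and inhibitors, 4 lie below 0, down to -0.20 for *Psme2b*.

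Genes of the 20S core were closer to WT, although the difference between core and cap was not tested. Of 16 genes tested, 14 (87.5%) had a log2 fold change above 0, compared with 51.2% of all genes. In both cKO-labelled libraries, 7 (43.8%) were higher, compared with 22.8% of all genes. The median log2 fold change was 0.09 (a fold of 1.06). The genes of the standard particle, 14 in all, each had a value above 0 with all 4 libraries in the test, and the 2 below 0 were the immunosubunit *Psmb10* and the testis-specific α subunit *Psma8*. The sign was less firm for the genes nearest to 0: *Psmb4* was just below 0 with DESeq2 size factors, and *Psma3*, *Psma4*, *Psmb1*, *Psmb2* and *Psmb4* were each below 0 when 1 or another library was left out. The 7 genes of the α ring had a median of 0.10, and 5 were higher in both. *Psma6* had 1404 and 1400 counts in WT and 1723 and 1768 counts in the cKO-labelled libraries. After scaling, *Psma6* stood at 99.2 and 92.6 CPM in WT and at 113 and 114 CPM in the cKO-labelled libraries, with no overlap. Its log2 fold change was 0.25 (SE 0.12), with an FDR of 0.501 in the edgeR test. *Psma1* was close to it (0.24), and *Psma3* (0.02) and *Psma4* (0.04) overlapped between the groups.

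The β ring holds the proteolytic sites. *Psmb5*, of the chymotrypsin-like site, had 481 and 577 counts in WT and 690 and 599 counts in the cKO-labelled libraries. *Psmb6*, of the caspase-like site, had 838 and 944 counts in WT and 1152 and 993 counts in the cKO-labelled libraries. For both genes cKO replicate 1 was highest and replicate 2 was just above the upper WT library. Their log2 fold changes were 0.22 (SE 0.15, FDR 0.635) and 0.20 (SE 0.13, FDR 0.634) in the edgeR test, and were 0.10 and 0.08 without cKO replicate 1. *Psmb7*, of the trypsin-like site, had 1756 and 1976 counts in WT and 2068 and 1994 counts in the cKO-labelled libraries. The upper WT library and cKO replicate 2 were nearly equal in counts, and after scaling the groups overlapped (log2 fold change 0.05, SE 0.11, FDR 0.8997 in the edgeR test). None of the 4 β subunits without a proteolytic site (*Psmb1* to *Psmb4*) was higher in both, compared with 22.8% of all genes tested. Sequence is shared with another gene for 71.7% of the 31-base sequences of *Psmb5* and 58.7% of those of *Psma5*, so that their counts depend on how the authors placed such reads.

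*Psmb10* encodes the immunosubunit that takes the place of *Psmb7*. It had 1242 and 1407 counts in WT, 1482 in cKO replicate 1 and 1212 in replicate 2. The cKO-labelled libraries were thus the highest and the lowest of the 4, and the log2 fold change was -0.04 (SE 0.14, FDR 0.948 in the edgeR test). It was 0.10 without cKO replicate 2. The other immunosubunit genes, *Psmb8* and *Psmb9*, which the rule leaves out, also overlapped between the groups (0.06 and -0.12). *Psma8* had 29 and 34 counts in WT and 33 and 29 counts in the cKO-labelled libraries, at which depth a difference was not detectable (log2 fold change -0.09, SE 0.37).

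**Figure D3:**
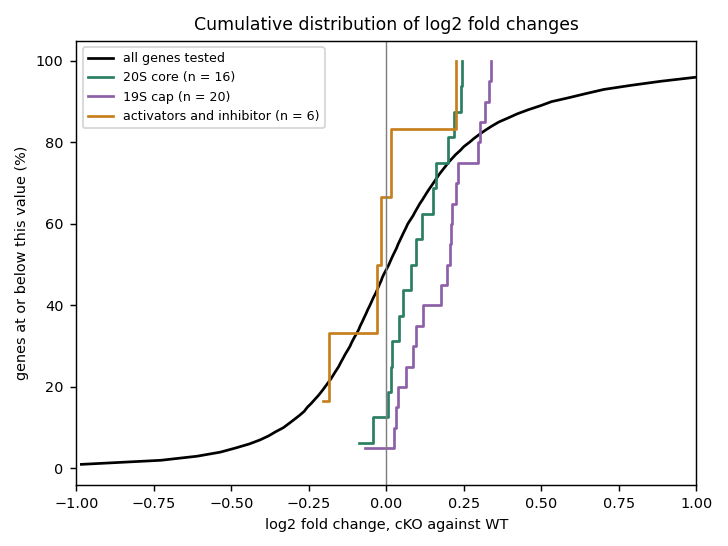
Cumulative share of genes (y axis, percent) at or below each log2 fold change (x axis, cKO-labelled libraries against WT) for all 12393 genes tested (black), the 16 genes of the 20S core (green), the 20 of the 19S cap (purple) and the 6 activators and inhibitors (orange). The curves cross 50% at medians of 0.01, 0.09, 0.20 and -0.02.

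Activators and the inhibitor of the core stood at a median log2 fold change of -0.02. Of the 6 genes, 1 (16.7%) was higher and 2 (33.3%) were lower in both cKO-labelled libraries. These shares compare with 22.8% and 20.8% of all genes tested. *Psme1* and *Psme2* encode PA28α and PA28β, the interferon-inducible activator that opens the core for peptide release. *Psme1* had 10770 and 11304 counts in WT and 10435 and 9928 counts in the cKO-labelled libraries. Scaled to library size these were 761 and 748 CPM against 685 and 642 CPM, so that both of the latter libraries were below WT. The log2 fold change was -0.19 (SE 0.13, FDR 0.643 in the edgeR test), from -0.23 to -0.15 when any 1 library was dropped. The summed interferon response genes given above were also below WT in these libraries, and their part in the value of *Psme1* was not tested.

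*Psme2* had 2555 and 3158 counts in WT and 3078 and 2823 counts in the cKO-labelled libraries, both of which lay between the WT libraries (log2 fold change -0.02, SE 0.13, FDR 0.974 in the edgeR test). Of the 31-base sequences of *Psme2b*, 76.5% also occur in *Psme2*, and of those of *Psme2*, 33.5% occur in *Psme2b*. *Psme2b* had 595 and 628 counts in WT and 559 and 555 counts in the cKO-labelled libraries. Its libraries did not overlap between the groups (log2 fold change -0.20, SE 0.13, FDR 0.615 in the edgeR test), although reads of these 2 genes cannot be told apart where the sequence is shared.

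*Psme3* encodes PA28γ, the nuclear activator. It had 1623 and 1813 counts in WT, 1829 in cKO replicate 1 and 2384 in replicate 2. Only the last library stood apart, as replicate 1 was nearly level with the upper WT library. The log2 fold change was 0.23 (SE 0.14, FDR 0.619 in the edgeR test), and was 0.03 without cKO replicate 2. *Psme4*, the gene of PA200, had 1866 and 1664 counts in WT and 1769 and 1869 counts in the cKO-labelled libraries. *Psmf1*, the gene of the inhibitor PI31, had 431 and 438 counts in WT, 515 in cKO replicate 1 and 407 in replicate 2. For *Psme4* the WT libraries enclosed the cKO-labelled libraries after scaling, and for *Psmf1* it was the reverse. Their log2 fold changes were -0.03 (SE 0.13) and 0.02 (SE 0.17), with FDRs of 0.961 and 0.981 in the edgeR test.

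Of the genes that match by symbol only, *Psmc3ip*, which encodes a partner of meiotic recombinases, had 146 and 148 counts in WT and 213 and 195 counts in the cKO-labelled libraries. Its groups did not overlap (log2 fold change 0.40, SE 0.19, FDR 0.512 in the edgeR test). *Psme3ip1*, the gene of a protein that binds PA28γ, overlapped (-0.04).

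Levels of different genes were compared per length, as CPM per kilobase of transcript (RPKM), for the members whose matched transcripts held 50% or more of their counts. In WT, *Psme1* was by far the highest, at 678 ± 8.36 RPKM (SD, n = 2), followed by *Psme2* at 203 ± 20.9 and *Psma7*, an α subunit, at 142 ± 0.799. The interferon-inducible genes outside the rule, *Psmb8* (277 ± 15.4 RPKM) and *Psmb9* (172 ± 5.91 RPKM), lay in the same range. The genes of the standard 20S core, of which 13 had a length, had a median level of 76.2 RPKM, from 37.6 for *Psma2* to 142 for *Psma7*. The genes of the cap without the chaperones, of which 16 had a length, had a median of 43.0 RPKM, from 27.6 for *Psmd3*, a lid subunit, to 84.4 for *Psmd4*. The chaperone genes *Psmd10*, *Psmd5* and *Psmd9* (12.7, 6.44 and 6.39 RPKM) and the inhibitor *Psmf1* (7.80 RPKM) were lower than any of these. *Psma8* was lowest, at 1.27 RPKM. The highest level of the standard core was 3.78 times the lowest by transcript length. By coding length it was 4.05 times, then from *Psmb5* to *Psma4*. The level of *Psmb5* also depends on how reads of shared sequence were placed. Neighbors in this order often did not differ beyond their spread, such as *Psmd4*, *Psmc3* and *Psmd8* at 84.4 ± 5.17, 82.4 ± 4.11 and 81.5 ± 4.75 RPKM.

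Pairs of genes that replace or accompany each other are given as ratios of RPKM. *Psmb10* stood at 0.626 and 0.630 of *Psmb7* in WT and at 0.634 and 0.538 in the cKO-labelled libraries, which differ only in replicate 2. *Psmb8* stood at 7.03 and 6.77 times *Psmb5*, the subunit it replaces, in WT and at 6.08 and 6.25 times in the cKO-labelled libraries. *Psmb9* stood at 2.26 and 2.25 times *Psmb6*, the subunit it replaces, in WT and at 1.86 and 1.74 times in the cKO-labelled libraries. For both of the latter pairs, the ratio was lower in both cKO-labelled libraries. These are 2 values against 2, for which an exact two-sided permutation test cannot give a P value below 0.333. The sizes of these ratios depend on the lengths used. By coding length, the WT mean was 0.720 for *Psmb10* to *Psmb7*. It was 11.9 instead of 6.90 for *Psmb8* to *Psmb5* and 4.15 instead of 2.25 for *Psmb9* to *Psmb6*. The ratio of *Psmb8* to *Psmb5* also depends on how reads of shared sequence were placed. Another gene holds 71.7% of the 31-base sequences of *Psmb5*, compared with 0.378% for *Psmb8*. *Psme2* stood at 0.275 and 0.324 of *Psme1* in WT and at 0.342 and 0.329 in the cKO-labelled libraries. *Psme1*, in turn, was 15.9 and 14.9 times *Psme3* in WT and 13.7 and 9.98 times in the cKO-labelled libraries. By coding length, the WT means of these ratios were 0.269 for *Psme2* to *Psme1* and 6.56 instead of 15.4 for *Psme1* to *Psme3*.

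**Figure D4:**
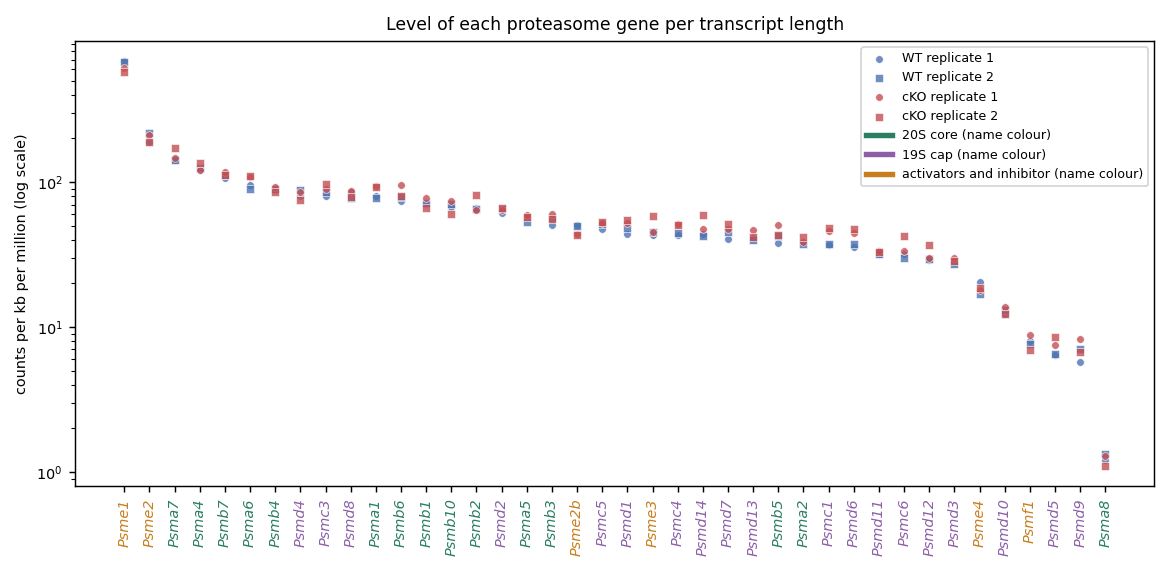
Level of each proteasome gene in each library, in RPKM (y axis, log scale), in the order of the WT mean; blue marks are WT, red marks are cKO-labelled libraries (circles, replicate 1; squares, replicate 2), and the color of a name gives the part of the complex. *Psme1* leads at 678 in WT and *Psma8* is last at 1.27, and most genes of the core and cap lie between 27.6 and 142.

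At a cutoff of 20 counts, no single transcript of the members was present in 1 group and absent from the other. This all-or-none measure does not cover shifts in the share of a transcript, which were not tested. The files list 89 transcripts for the 43 members, 80 of them with a count, and 19 members have more than 1. For 0 of these transcripts, both libraries of a group held at least 20 counts and both of the other group 0, in either direction. In 4 transcripts of 2 genes (*Psma3* and *Psme4*), a library held at least 20 counts and another 0, and each of these transcripts held at most 2.51% of the counts of its gene. For *Psmd4*, the most abundant transcript had 989 and 1112 counts in WT and 968 and 857 in the cKO-labelled libraries. A rarer transcript of this gene had 49 and 67 counts in WT and 138 and 118 in the cKO-labelled libraries.

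The wider ubiquitin–proteasome pathway was described by a list of 30 other genes, all of which were tested. Of these, 18 (60%, compared with 51.2% of all genes) had a log2 fold change above 0 and 12 below 0, with a median of 0.08 (0.14 with the most abundant transcript of each gene), and 14 (46.7%, compared with 22.8% of all genes) were higher and 2 (6.67%, compared with 20.8%) lower in both cKO-labelled libraries. In the quasi-likelihood test of edgeR, 0 had an FDR below 0.05. With an unadjusted P value under 0.05, 4 (13.3%) were higher and 0 lower, compared with 6.95% and 3.77% of all genes.

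Among the shuttle factors, which carry ubiquitylated proteins to the cap, 5 of 6 (83.3%) were higher in both, all but *Ddi2*. Of all genes tested, 22.8% were. *Ubqln4* had 444 and 495 counts in WT and 617 and 625 counts in the cKO-labelled libraries, with no overlap (log2 fold change 0.34, SE 0.13, FDR 0.435 in the edgeR test). Among the enzymes and proteins bound to the proteasome, 4 of 6 were higher in both. *Usp14*, a deubiquitinase of the cap, had 585 and 604 counts in WT and 689 and 920 counts in the cKO-labelled libraries, again with no overlap (0.37, SE 0.16, FDR 0.478 in the edgeR test). *Txnl1*, a thioredoxin-like protein of the cap, stood at 0.31 (FDR 0.457 in the edgeR test). Of the 5 assembly chaperones of the core, *Psmg2* had the largest value. Its counts were 187 and 192 in WT and 282 and 290 in the cKO-labelled libraries, which kept well apart (0.52, SE 0.17, FDR 0.357 in the edgeR test). *Psmg3* was also higher in both (0.34), whereas *Pomp*, *Psmg1* and *Psmg4* overlapped.

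Of ubiquitin and its activation, 3 genes were examined, and all 3 had a value below 0, with a median of -0.08. *Ubb*, a polyubiquitin gene, had 14324 and 15121 counts in WT and 13613 and 13498 counts in the cKO-labelled libraries, both of which were below WT (-0.19, SE 0.13, FDR 0.644 in the edgeR test). *Rps27a*, which encodes ubiquitin fused to a ribosomal protein, and *Uba1*, the gene of the activating enzyme, overlapped (-0.08 and -0.01). Of the regulators of subunit transcription, *Nfe2l1* was lower in both, with 107 and 109 CPM in WT and 97.2 and 99.3 CPM in the cKO-labelled libraries (-0.13, SE 0.11). *Nfe2l2* was higher in both, with 520 and 483 counts in WT and 631 and 728 counts in the cKO-labelled libraries (0.37, SE 0.15, FDR 0.444 in the edgeR test). *Ngly1*, which processes the *Nfe2l1* product, overlapped. Of the unfoldase genes, *Vcp* (0.19) and its cofactor *Nploc4* (0.17) were higher in both and *Ufd1* (-0.08) overlapped. The cap subunits with other symbols, *Adrm1* (0.09) and *Sem1* (-0.03), overlapped as well.

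**Figure D5:**
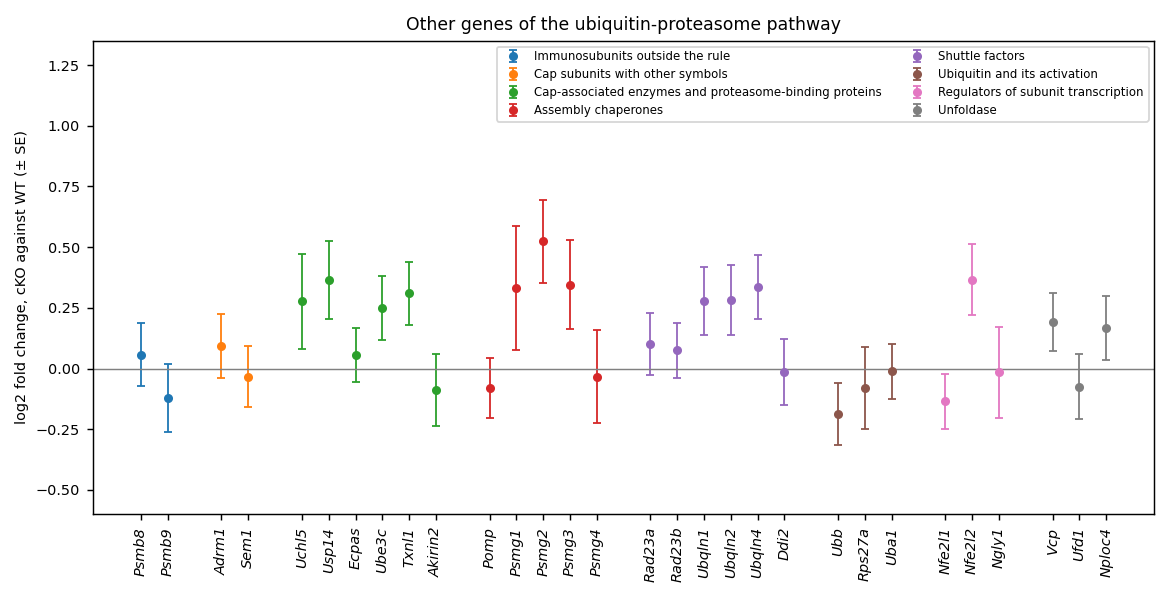
Log2 fold change of the 30 other genes of the pathway, cKO-labelled libraries against WT (y axis, points; bars are ± SE from the edgeR fit), colored by list. Values run from -0.19 for *Ubb* to 0.52 for *Psmg2*, and all 3 genes of ubiquitin and its activation lie below 0.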

How the data were processed

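RNA was extracted with TaKaRa RNAiso Plus and libraries were made with the CORALL RNA-seq V2 kit, per the labels, although the study's methods name a QIAGEN RNeasy Mini Kit for the RNA. The deposited counts are whole numbers per transcript, which the authors did not normalize. The submitters' processing notes name fastp, STAR, Salmon, GATK and GRCm39 without their roles. Whether the counts are reads or rounded estimates, and how reads that fit several transcripts or near-identical genes were placed, is not given in the sources used here, so no coordinates are given apart from those of the RefSeq promoters, which have their own build.

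Counts were summed per gene symbol. The 12393 genes that passed filterByExpr were tested over all 4 libraries by the quasi-likelihood test of edgeR 4.0.16 (glmQLFit, glmQLFTest) with TMM normalization and Benjamini-Hochberg adjustment (FDR threshold 0.05) in R 4.3.3. The biological coefficient of variation was 15.2%. An SE was obtained by dividing the log2 fold change by the root of its F value. Members and lists were described by counts and medians beside those of all genes. The members, the pathway and marker lists and the rule for genes given in every library (catalytic subunits, immunosubunit, activators, inhibitor, tissue-restricted genes and the 4 smallest P values in each direction) were chosen with earlier results of these data known. *Psmc6*, *Psmd14*, *Psmc3ip* and the genes of the pathway given with counts were chosen after their values were seen. Of the genes first listed for the pathway, 2 are not reported here.

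RPKM used GENCODE M21 lengths of the transcripts matched by RefSeq accession. *Psma3* and *Psmc2* were left out, because under 50% of their counts lay on matched transcripts. To measure shared sequence, transcripts were cut into 31-base words, and the share of words that another gene also holds was taken. The test was checked on simulated data. Alternatives were DESeq2 1.42.0 (size factors, Wald test), limma-voom 3.58.1, the edgeR likelihood ratio test, upper quartile normalization, other filters, the most abundant transcript, a replicate block and leaving out each library in turn. No 2 libraries agreed within sampling noise (chi-square over its degrees of freedom 11.2 or more). Counting error alone allows up to 3 counts for a count of 0.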

Additional observations from a re-analysis of the deposited data

How the results depend on the processing

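The number of proteasome genes at FDR < 0.05 was 0 under every test, filter and normalization run, including the most abundant transcript of each gene and the replicate block. Over all genes tested it was 13, and this number was 234 by the likelihood ratio test of edgeR, 137 by the DESeq2 Wald test, 0 with the most abundant transcript and 504 with the replicate block. The number of proteasome genes at an unadjusted P value below 0.05 was 2, against 1 by the DESeq2 Wald test, 0 under the replicate block and 3 with upper quartile normalization, which adds *Psmd5*. The labels do not say that a number marks a pair. Libraries with the same number did not deviate together (correlation -0.0381 across genes). With 2 libraries a group this value cannot decide whether they were paired, so pairing remains unknown. The cause of these differences was not tested.

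Leave-one-out fits keep 1 library in a group and are given without P values. In these fits the median log2 fold change ran from 0.09 to 0.11 over the proteasome genes, from 0.07 to 0.09 over the 20S core, from 0.12 to 0.21 over the 19S cap, from -0.13 to -0.019 over activators and inhibitor and from 0.0861 to 0.111 over the other genes of the pathway, of which 6 to 12 lay below 0. Of 208 values of the genes given in every library, 200 kept their direction and, where a test was given, their side of the FDR threshold. The 8 that reversed belong to 6 genes near 0 and came from leaving out a library. *Psme4* ran from -0.164 to 0.106 over the leave-one-out fits (0.106 without WT replicate 1). *Psme2* ran from -0.120 to 0.0806 (0.0806 without WT replicate 2 and 0.0467 without cKO replicate 2), and *Psmf1* from -0.175 to 0.180 (-0.0295 without WT replicate 2 and -0.175 without cKO replicate 1). *Psmb10* ran from -0.206 to 0.0988, *Psma8* from -0.197 to 0.0039 and *Psmd4* from -0.163 to 0.0157, the upper value without cKO replicate 2 for each. Outside these ranges, *Psmd4* stood at -0.273 and *Psmf1* at 0.233 with the most abundant transcript. The pathway median of 0.0839 was 0.140 with the most abundant transcript and 0.0947 with upper quartile normalization, and by coding length the levels of the standard 20S core spanned 4.05 times.

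After the values were seen, 2 alternatives were added. Without the assembly chaperones, the median over the proteasome genes was 0.10 and 22 were higher in both cKO-labelled libraries. Without the 7 genes with 20% or more of their sequence in another gene, the median was 0.12 and 20 of 35 (57.1%) were higher in both. With 2 libraries a group and SEs of at least 0.11 for each member, single differences of the size seen here were mostly within the error.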
